A study of Mus musculus with 18 samples.

Results

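Retinoic acid signalling was examined through 9 genes, *Aldh1a3*, *Aldh1a2*, *Dhrs3*, *Stra6*, *Crabp1*, *Crabp2*, *Rarb*, *Rarg* and *Cyp26a1*, of the 24346 gene symbols measured in 18 RNA-seq libraries of female hybrid mouse ES cells. The genes were taken by symbol. *Aldh1a3* was selected on its rise in *Tsix*-stop *Kdm6a* KO cells at D0, so that contrast is described without a test for each of the 9 genes. *Kdm6a* encodes the X-linked demethylase that strips methyl groups from H3K27. *Tsix*-stop cells, from a cross of strain-129 and *cast* mice, carry a transcriptional stop in *Tsix* on the strain-129 X, so that this X is always the one silenced, and this holds for wt, KO and CRISPR control cells of that line. Their KO is a homozygous deletion from exon 2 into exon 4 of *Kdm6a*, and the study's methods place 2 KO clones at each day, so the gap between the 2 KO libraries of a day includes any gap between clones. The labels do not name the clone of a library. The study describes the CRISPR control as 1 clone that went through CRISPR/Cas9 and kept *Kdm6a*, but the label of its libraries is in doubt (below). The *Tsix*-stop libraries were 2 wt, 2 KO and 1 CRISPR control at D0, as ES cells grown with LIF and serum on inactivated feeder fibroblasts, and the same numbers at D15, after LIF removal and growth as EBs. E8 cells, from a cross of BL6 and *cast* mice, choose either X for silencing. Their libraries, labelled D7 and D15 of the same undirected differentiation, were 2 wt and 2 KO on each day, and the KO is 1 clone with a deleted *Kdm6a* promoter. The study's methods give earlier days than the labels for RNA-seq of E8 cells, with 1 wt and 1 KO, so the day of each E8 library and any match of its D15 with *Tsix*-stop D15 are in doubt, and the days are named here as labelled. The methods call the *Tsix*-stop wt libraries biological replicates. For E8 nothing states that replicate libraries came from separate cultures, so those p-values measure only the spread between these libraries, which may be technical.

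Retinoic acid is made from vitamin A in 2 steps. Retinol is oxidized to retinal by retinol dehydrogenases such as Rdh10, and retinal to retinoic acid by the aldehyde dehydrogenases Aldh1a1, Aldh1a2 and Aldh1a3, while Dhrs3 turns retinal back into retinol. Stra6 is the membrane receptor that takes up retinol from its carrier Rbp4, and Crabp1 and Crabp2 bind retinoic acid in the cytoplasm. The acid activates the nuclear receptors Rara, Rarb and Rarg, and Cyp26 enzymes degrade it. *Rarb*, *Cyp26a1*, *Stra6*, *Crabp2* and *Dhrs3* are themselves known targets of the receptors, and in ES cells and early embryos retinoic acid drives exit from pluripotency and differentiation of endoderm and neural cells.

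Receptor dimers bind direct repeats of a 6-base half-site. RefSeq start-site windows (GRCm38.p6, 250 bases before to 50 after each start) were present for 7 of the 9 genes. They were searched on both strands for 2 half-sites in direct repeat with 1, 2 or 5 bases between them, where a half-site read AGGTCA or the same with G as the first base, T as the third base, or both. The repeat with 5 bases between was found in the windows of *Rarb* and *Cyp26a1* and in no window of *Aldh1a2*, *Dhrs3*, *Stra6*, *Crabp1* or *Rarg*, and in 32 of all 32851 windows (0.0974%). The repeats with 1 and 2 bases between were found in no window of the 7 genes, and in 0.222% and 0.268% of all windows. No repeat overlapped another. A match is only a match of letters, and its absence says that these letters are not in that window. The sequences are shown because, of the 7 genes, only *Rarb* and *Cyp26a1* had a repeat. A link of the repeats to expression was not tested. Capitals mark the half-sites.
Rarb, chr14:16575513-16575529, minus strand, 53 to 37 bases before the RefSeq start: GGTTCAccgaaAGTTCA
Cyp26a1, chr19:37697558-37697797, plus strand, 240 bases that end before the annotated first exon: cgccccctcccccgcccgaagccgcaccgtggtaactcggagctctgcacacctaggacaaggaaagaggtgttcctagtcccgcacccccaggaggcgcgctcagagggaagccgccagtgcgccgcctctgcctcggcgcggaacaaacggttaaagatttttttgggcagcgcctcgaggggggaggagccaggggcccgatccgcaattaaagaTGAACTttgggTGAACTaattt
The *Cyp26a1* repeat reads on the strand opposite to the gene, so the printed letters are its complement. GENCODE vM21 places the *Rarb* repeat inside the first exon of a *Rarb* transcript that starts upstream of the RefSeq start.

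*Tsix*-stop libraries held 51091152 to 68796179 estimated counts, which are given as CPM (counts scaled to a common library size by TMM), and in TPM where genes are compared with each other. E8 values are the authors' TPM, and their depth is unknown. *Kdm6a* was near absent in E8 KO libraries, at 0.00578 to 0.0319 TPM against 46.7 to 47.8 TPM in wt. In *Tsix*-stop KO libraries the gene total was 27.6 to 132 CPM against 105 to 211 CPM in wt, and a total over the gene does not show a deletion of a few exons. Labels and content disagreed in places. For the 2 CRISPR control libraries the deposited names read KO, so their label is in doubt and they enter no main test. The libraries labelled E8 wt D7 and D15 kept 12873 to 17346 summed TPM of 8 pluripotency markers, with 12.1 to 20 of 8 visceral endoderm markers and 22.5 to 34.6 of 8 fibroblast markers, and E8 replicates were closer to each other than *Tsix*-stop replicates.

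Marker lists of other cell types moved with genotype, and at D15 those of visceral endoderm, fibroblasts and surface ectoderm did so in opposite directions in the 2 lines. Visceral endoderm is the extraembryonic layer marked by *Afp* and *Ttr*. In *Tsix*-stop cells at D15 its summed TPM was 673 to 781 in wt, against 38.4 to 55.2 in KO and 39.9 for the CRISPR control, with 8, 6 to 7 and 8 of the 8 markers at 1 TPM or more. The fibroblast sum was 2750 to 3094 in wt, against 222 to 278 in KO and 121 for the CRISPR control. In E8 cells the visceral endoderm sum was 1245 to 1246 in KO against 18.8 to 20 in wt at D7, and 275 to 277 against 12.1 to 12.6 at D15. A surface ectoderm list, which includes *Krt8*, a keratin of other epithelia too, was 456 to 481 in E8 KO against 29.9 to 33.4 in wt at D7, and in *Tsix*-stop cells at D15 it was 596 to 621 in wt, 91.8 to 369 in KO and 960 for the control. Pluripotency markers ran the other way, at 8606 to 9317 in wt and 11251 to 14027 in KO at *Tsix*-stop D15, and at 4366 to 7844 over the E8 KO libraries, under all E8 wt libraries. The cardiac muscle sum was lower in KO in *Tsix*-stop cells at D15 (29.3 to 48.3 against 97.4 to 124) and in E8 cells at D7 (6.83 to 8.71 against 24.7 to 26.6), and overlapped at E8 D15. The neural sum was higher in KO at *Tsix*-stop D15 (114 to 139 against 59.5 to 61.2) and at E8 D7 (51.2 to 52.9 against 46.4 to 50.5), and lower at E8 D15 (27.6 to 28.5 against 32.7 to 36.5). These sums separate wt from KO in the same way as several of the genes below, and their part in those results was not tested. In bulk RNA, fewer cells of a type and less RNA per cell cannot be told apart.

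**Figure D1:**
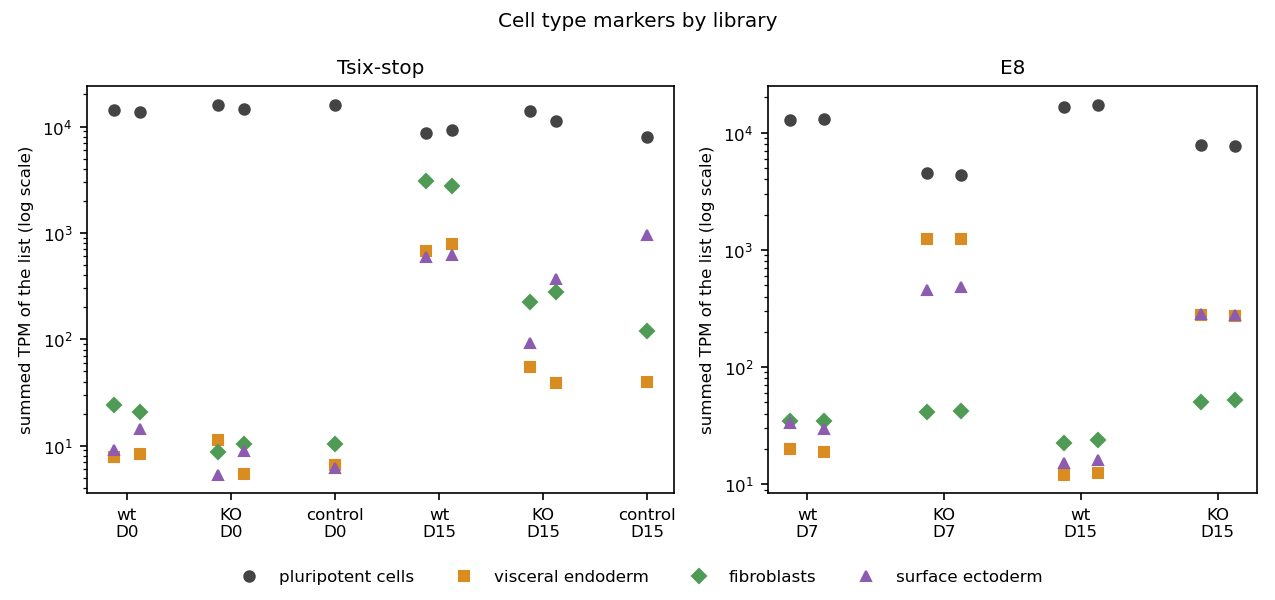
Summed TPM (log scale) of marker lists for pluripotent cells, visceral endoderm, fibroblasts and surface ectoderm in each *Tsix*-stop (left) and E8 (right) library, 1 point per library, with "control" for the CRISPR control. Visceral endoderm markers at D15 were above KO in *Tsix*-stop wt libraries (673 to 781 against 38.4 to 55.2) and below KO in E8 wt libraries (12.1 to 12.6 against 275 to 277).

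*Aldh1a3* (chr7:66390890-66427517, minus strand), one of the 3 enzymes that make retinoic acid, ranked 8 from the top of 13121 genes by fold change in *Tsix*-stop KO against wt at D0. The wt libraries had 4.94 and 5.04 CPM, the KO libraries 66.7 and 47.6, and the CRISPR control 107. KO and control libraries were thus all well above wt, and the control was the highest of the 5. The mean in KO was 11.5-fold that in wt (fitted log2 fold change 3.49, SE 0.44), and the control was 21.4-fold above the wt mean. With the control counted as wt the fitted value was 0.53, and the number of genes called at D0 was 20 in place of 1066. In TPM, which allows comparison between genes, *Aldh1a3* was at 37.9 to 52.4 in KO at D0, above the other 8 genes (0.0705 to 30.05), while in wt at D0 it was at 3.60 to 3.82, under *Rarg*, *Crabp1*, *Dhrs3*, *Crabp2* and *Aldh1a2*.

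By D15 this high level was gone. *Aldh1a3* was at 3.14 and 4.17 CPM in wt, with 9.38 and 3.27 for KO and 1.93 for the control. The KO mean at D15 was 0.111 of that at D0, the control fell by more, to 0.0181, and wt was at 0.733. Over all conditions the order by mean was CRISPR control D0, KO D0, KO D15, wt D0, wt D15 and CRISPR control D15, and the 2 KO D15 libraries lay on either side of both wt D0 libraries and overlapped with wt D15. *Aldh1a3* did not pass the test of KO against wt at D15 (log2 fold change 0.72, SE 0.42, edgeR FDR = 0.209). The 2 KO libraries lay 2.87-fold apart, and the value turned to -0.19 without KO replicate 1 and became a call, at 1.31 (edgeR FDR = 0.00493), without KO replicate 2. In E8 cells *Aldh1a3* stayed low, at 0.926 and 0.671 TPM in wt and 1.83 and 1.56 in KO at D7, and at 1.12 and 1.04 in wt and 1.01 and 1.25 in KO at D15, all under the 2.5 TPM needed for testing. KO was above wt in both libraries at D7 and overlapped with it at D15.

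**Figure D2:**
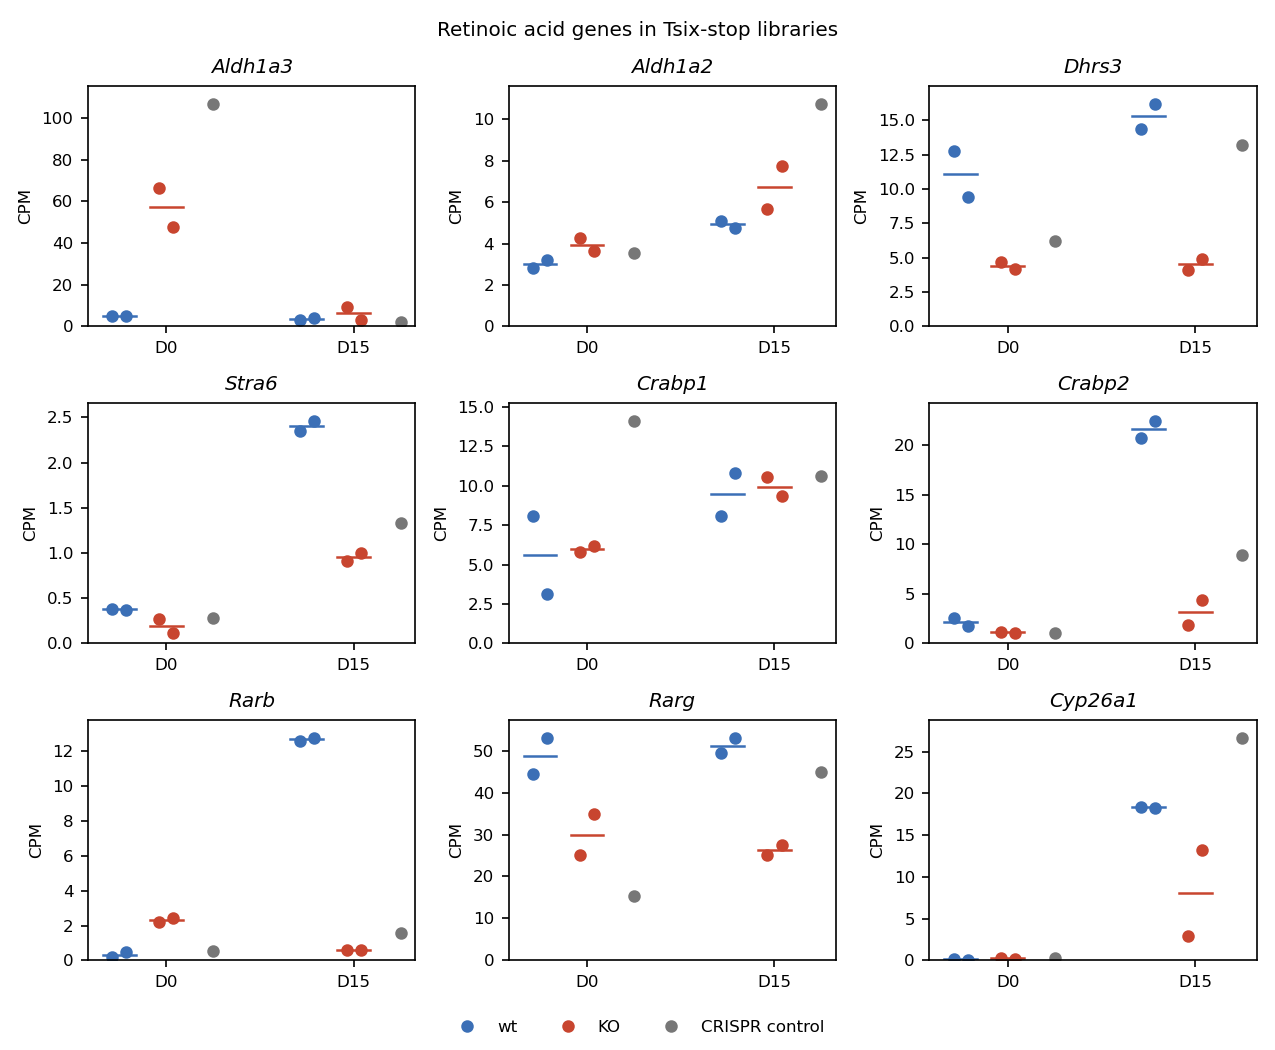
CPM of the 9 genes in *Tsix*-stop libraries at D0 and D15. Points are libraries and bars are means of 2 wt or 2 KO libraries; the CRISPR control has 1 library per day. *Aldh1a3* is high in KO and control at D0 only (47.6 to 107 CPM), and *Rarb* and *Crabp2* are high in wt at D15 (12.6 to 22.4 CPM).

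*Aldh1a2* (chromosome 9), the main retinoic acid-making enzyme of the early embryo, moved little. In *Tsix*-stop cells it was at 2.84 and 3.19 CPM in wt and 4.24 and 3.62 in KO at D0, and at 5.11 and 4.75 in wt and 5.66 and 7.75 in KO at D15. The KO libraries were above the wt libraries on each day. The D15 difference was not called (log2 fold change 0.38, SE 0.24, edgeR FDR = 0.260). In E8 it was lower in KO at D7 (1.52 and 1.10 TPM against 2.04 and 2.17) and higher at D15 (3.13 and 2.92 against 1.88 and 1.96), without reaching 2-fold on the log2(TPM + 1) scale (-0.43 and 0.46). It passed the E8 filter through the KO D15 libraries alone. *Aldh1a1*, the third enzyme of the family, was at 1.02 TPM or less in all 18 libraries.

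*Dhrs3* (chromosome 4), the retinal reductase, was low in KO on both days. At D15 it was at 14.4 and 16.2 CPM in wt libraries, 4.09 and 4.94 in KO libraries, with 13.2 for the CRISPR control. The groups did not overlap, and the control lay near wt. *Dhrs3* was 3.38-fold lower in KO (log2 fold change -1.83, SE 0.23, edgeR FDR = 0.000943). At D0 the values were 12.7 and 9.43 for wt, 4.68 and 4.15 for KO and 6.22 for the control, a fitted log2 fold change of -1.36. In E8 the order was reversed at D7, with 4.59 and 4.37 TPM in wt and 8.89 and 8.39 in KO (log2 fold change 0.82, under 2-fold), and wt was the higher at D15, with 11.1 and 11.7 in wt and 8.73 and 10.1 in KO (-0.25). Expression in E8 wt rose between the days (log2 fold change 1.18, SE 0.07, limma FDR = 2.97e-05), and the KO effect differed between D15 and D7 by -1.07 (SE 0.10, limma FDR = 0.000116).

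Members were then counted by comparison, with a call at an FDR of at most 0.1 and at least 2-fold. In *Tsix*-stop KO against wt at D15, 5 of the 9 genes tested were called lower, *Rarb*, *Crabp2*, *Dhrs3*, *Stra6* and *Rarg*, against 11.1% of 13121 genes called lower and 3.83% called higher. The median log2 fold change of all 9 genes, called or not, was -1.25, beside -0.00175 over all genes tested. *Rarb* and *Stra6* passed the filter of 2.5 CPM in 2 libraries only through the wt D15 libraries, in which they were high. These 2 could only enter as lower, both in the count and in the median. Both were also called with no filter on low counts (edgeR FDR = 1.39e-06 and 0.0152). *Rarg* was not called in that fit (log2 fold change -0.96), nor with library totals only (-0.99). With the CRISPR control counted as wt, 3 genes were called, and *Stra6* and *Rarg* were lost (edgeR FDR = 0.1504 and 0.166).

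The uptake and binding genes fell in different degrees. *Crabp2* (chromosome 3), which carries retinoic acid to its receptors in the nucleus, was at 20.7 and 22.4 CPM in wt at D15 and 1.88 and 4.41 in KO, with 8.88 in the CRISPR control. It was 6.86-fold lower in KO (log2 fold change -2.84, SE 0.39, edgeR FDR = 0.00142), and the control lay between the groups. *Stra6* (chromosome 9) was at 2.35 and 2.46 (wt), 0.915 and 0.999 (KO) and 1.33 CPM (control) (log2 fold change -1.40, SE 0.37, edgeR FDR = 0.0204). *Crabp1*, the other cytoplasmic binding protein, did not follow: it was at 8.05 and 10.8 in wt, with 10.5 and 9.33 for KO and 10.6 for the control, and KO and wt overlapped (log2 fold change 0.00, SE 0.39). At D0 *Crabp2* and *Stra6* were under 3 CPM in all libraries and lower in KO, with fitted values of -0.99 and -1.01, the latter over only 7 to 25 counts.

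*Rarb* (chr14:16430839-16819156, minus strand) showed the largest D15 difference of the 9 genes. It was at 12.6 and 12.8 CPM in wt, with 0.570 and 0.617 for KO and 1.59 for the CRISPR control. Both KO libraries and the control were far under wt, though the control was 2.58-fold above the higher KO library. *Rarb* was 21.4-fold lower in KO (log2 fold change -4.48, SE 0.34, edgeR FDR = 0.000161). The order at D0 was the opposite: 0.216 and 0.459 CPM in wt, from 14 and 26 counts, 2.18 and 2.41 in KO, and 0.552 in the control. That was a fitted log2 fold change of 2.75, rank 23 of 13121, and here the control stayed near wt, unlike for *Aldh1a3*. *Rarg* (chromosome 15), the third retinoic acid receptor gene beside *Rarb* and *Rara* (35.02 to 43.6 TPM in wt at D0, with 30.5 to 31.4 TPM of *Rara* and 53.2 to 57.4 TPM of the partner receptor *Rxrb*), was lower in KO on both days: 44.3 and 53.0 CPM in wt against 25.1 and 34.8 in KO at D0, and 49.4 and 52.9 against 25.1 and 27.5 at D15. The D15 difference was just past 2-fold (log2 fold change -1.03, SE 0.17, edgeR FDR = 0.00285), and was -0.96 without wt D15 replicate 2 and -0.93 without KO D15 replicate 1. The control was at 15.3 CPM at D0, the lowest of all, and at 44.9 at D15.

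*Cyp26a1* (chr19:37697798-37701536, plus strand), the main retinoic acid-degrading enzyme of the early embryo, was at 18.4 and 18.2 CPM in wt at D15, against 2.90 and 13.2 for KO and 26.6 for the CRISPR control. The groups did not overlap, but the 2 KO libraries lay 4.56-fold apart. The difference was not called (log2 fold change -1.25, SE 0.55, edgeR FDR = 0.109). It was called by DESeq2 (-1.23, FDR = 0.0557), by edgeR with no filter on low counts (-1.18, FDR = 0.0668) and with a replicate block (-1.47, FDR = 0.0633). In 12 other recomputed fits it was not called. The value ranged from -2.71, without KO replicate 2, to -0.50 over the alternatives. KO replicate 1 was also the lower for *Crabp2* and the higher for *Aldh1a3* and *Kdm6a*. It had 91.8 summed TPM of surface ectoderm markers against 369 in replicate 2, while the visceral endoderm sum was 55.2 against 38.4. At D0 *Cyp26a1* stood at 0.106 to 0.347 CPM in all 5 libraries, from 6 to 22 counts.

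Between D0 and D15 *Cyp26a1*, *Rarb*, *Crabp2* and *Stra6* rose in wt cells. Leaving out *Aldh1a3*, whose D0 values were used to choose it, these were the 4 of 8 genes called higher in wt, where 24.2% of genes were called higher and 13.6% lower. *Rarb* and *Stra6* passed the filter only through wt D15, and *Cyp26a1* and *Crabp2* only through D15 libraries of wt and KO. All 4 could therefore only enter as higher. With no filter on low counts all 4 were called higher too. The means rose 149-fold for *Cyp26a1* (edgeR FDR = 5.96e-05), 37.6-fold for *Rarb* (edgeR FDR = 6.61e-06), 10.1-fold for *Crabp2* (edgeR FDR = 9.87e-05) and 6.36-fold for *Stra6* (edgeR FDR = 0.000318). *Dhrs3*, *Rarg*, *Aldh1a2* and *Crabp1* had log2 fold changes between 0.16 and 0.83 and were not called. *Crabp1* was called, at 1.67, without wt D0 replicate 1, since the wt D0 libraries were at 8.10 and 3.10 CPM.

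In KO cells 3 of the 8 genes were called higher and 1 lower over the same interval, beside 20% and 7.66% of all genes. *Cyp26a1* rose 33.8-fold (edgeR FDR = 0.000419), *Stra6* 5.01-fold (edgeR FDR = 0.00194) and *Crabp2* 2.86-fold (edgeR FDR = 0.00983), while *Rarb* fell to 0.258 of its D0 level (edgeR FDR = 0.00121). The call of *Crabp2* rested on KO D15 replicate 2, without which its log2 fold change was 0.81. *Cyp26a1* and *Crabp2* passed the filter only through D15 libraries, and *Stra6* and *Rarb* only through wt D15. In the CRISPR control, with 1 library per day, *Cyp26a1* was 76.8-fold, *Crabp2* 8.15-fold, *Stra6* 4.68-fold and *Rarb* 2.88-fold higher at D15 than at D0. These comparisons share their D15 and D0 libraries with the comparisons of KO against wt, so they are not separate evidence. Whether the rise from D0 to D15 differed between KO and wt was not tested, since it contains the D0 contrast, which is described without a test. The fall of *Rarb* in KO starts from the D0 KO level, which is part of that contrast.

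In E8 cells 7 of the 9 genes were tested, *Aldh1a3* and *Rarb* being under 2.5 TPM. At D7, 2 genes were called higher in KO, *Cyp26a1* and *Stra6*, and 1 lower, *Crabp1*, beside 11.4% and 6.18% of 12452 genes. *Stra6* passed the filter only through KO D7, where it was high, so at D7 it could only enter as higher. At D15, *Cyp26a1* was called higher and *Rarg* lower, beside 7.67% and 3.08%. The median log2 fold change of the 7 genes was 0.0692 at D7 and -0.254 at D15, and over all genes it was 0.105 and 0.085.

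*Cyp26a1* had the largest KO to wt difference of these 7 genes in E8. It was at 15.9 and 15.8 TPM in wt and 207 and 217 in KO at D7, and at 2.17 and 1.98 in wt and 139 and 138 in KO at D15. Every KO library was far above every wt library on each day. KO was 13.4-fold above wt at D7 (log2 fold change 3.66, SE 0.04, limma FDR = 1.48e-09) and 66.7-fold at D15 (5.50, SE 0.04, limma FDR = 7.06e-10). The KO effect was larger at D15 by 1.84 on the log2(TPM + 1) scale (SE 0.06, limma FDR = 1.39e-06). The larger D15 effect accompanied a fall in wt (log2 fold change -2.45, limma FDR = 6.68e-07), while KO changed by -0.61, under 2-fold. *Cyp26c1*, which lies next to *Cyp26a1* on chromosome 19 and also degrades retinoic acid, was at 0.911 to 1.47 TPM in KO and 0.130 to 0.349 in wt, under the filter. *Cyp26b1* was at 0.311 to 0.540 in KO and 0.0731 to 0.129 in wt.

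*Rarb* was likewise above wt in each E8 KO library, at a low level. It was at 0.257 and 0.281 TPM in wt and 1.07 and 1.11 in KO at D7, and at 0.236 and 0.205 in wt and 0.855 and 1.01 in KO at D15. The ratio of means was 4.04 at D7 and 4.24 at D15. With no filter on low values the difference was 0.72 at D7 and 0.66 at D15 on the log2(TPM + 1) scale (limma FDR = 4.1e-05 and 8.87e-05), under the 2-fold needed for a call, and this scale understates the change of a gene under 1 TPM.

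**Figure D3:**
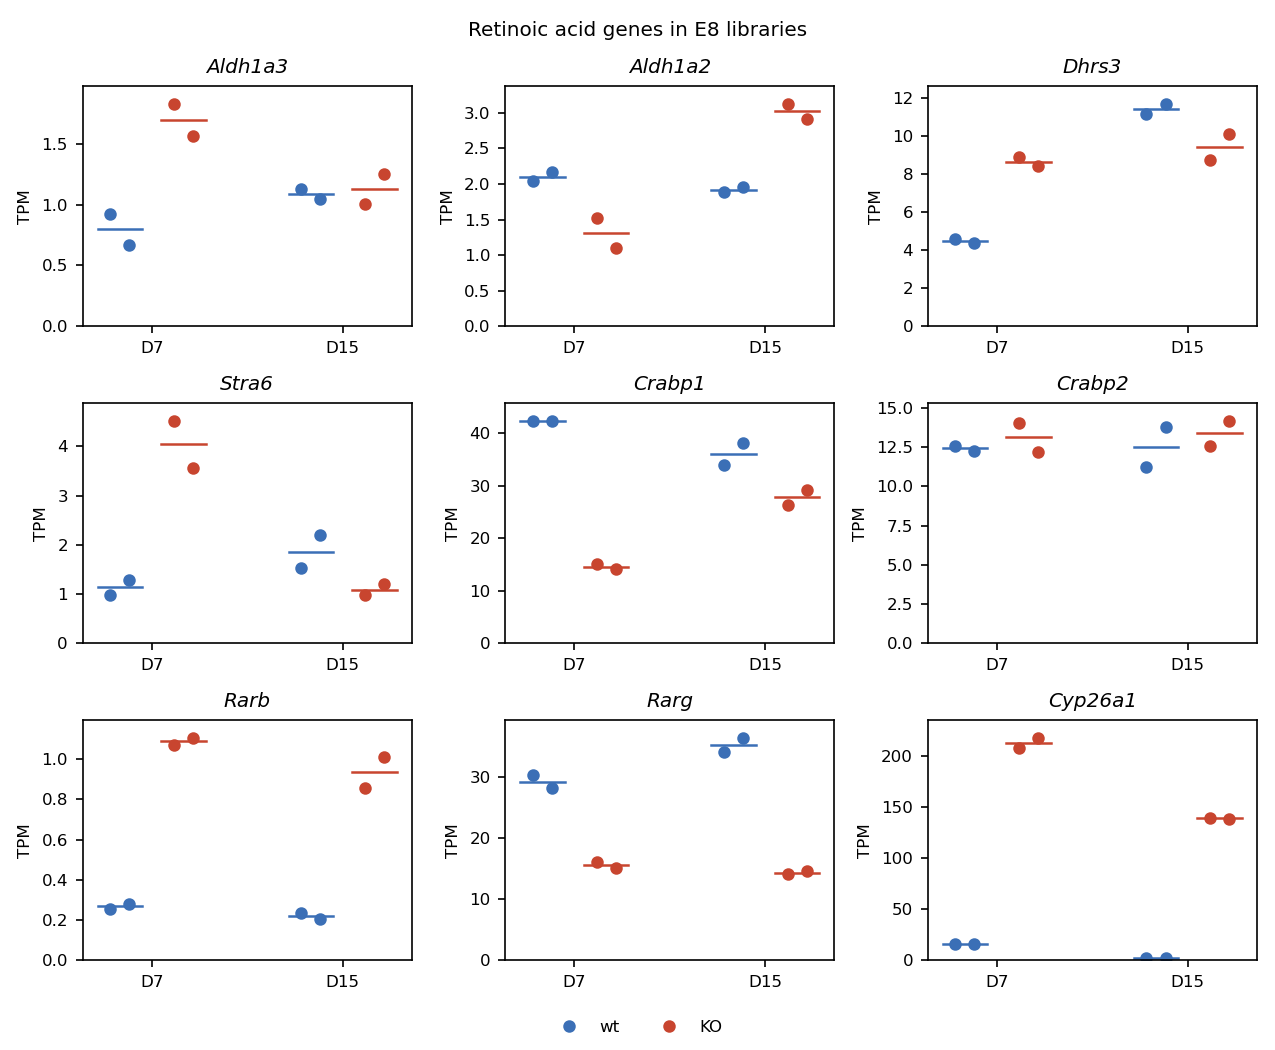
TPM of the 9 genes in E8 libraries at D7 and D15. Points are libraries and bars are means of 2 libraries. *Cyp26a1* is at 138 to 217 TPM in KO and 1.98 to 15.9 in wt, *Rarb* is higher in KO, and *Rarg* and *Crabp1* are higher in wt on both days.

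*Rarg* was lower in E8 KO too, at 30.3 and 28.2 TPM in wt and 16.1 and 15.1 in KO at D7 (log2 fold change -0.87, under 2-fold) and 34.1 and 36.4 in wt and 14.2 and 14.6 in KO at D15 (-1.24, SE 0.05, limma FDR = 8.22e-07). It was thus the 1 gene of the 9 that was called lower in KO at D15 in each line. Its *Tsix*-stop call was just past 2-fold and was lost under some alternatives. *Crabp1* was at 42.2 and 42.3 TPM in wt and 15.1 and 14.1 in KO at D7 (log2 fold change -1.47, SE 0.07, limma FDR = 7.77e-07), and this gap narrowed at D15, to 33.9 and 38.1 in wt against 26.3 and 29.3 in KO (-0.36). The KO effect on *Crabp1* differed between days by 1.11 (SE 0.10, limma FDR = 8.93e-05). *Stra6* was at 0.978 and 1.29 TPM in wt and 4.52 and 3.57 in KO at D7 (log2 fold change 1.24, SE 0.15, limma FDR = 0.000128), the group through which alone it passed the filter. At D15 it was the higher in wt, with 1.52 and 2.21 against 0.980 and 1.21 (-0.44), and the effects differed by -1.68 (SE 0.21, limma FDR = 0.000425). *Crabp2*, by contrast, stayed between 11.2 and 14.2 TPM in all 8 libraries, with differences of 0.07 and 0.10.

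Between the E8 days, *Dhrs3* was called higher and *Cyp26a1* lower in wt, beside 0.586% and 0.819% of all genes. *Stra6* was called lower in KO (log2 fold change -1.26, limma FDR = 0.00019), beside 3.41% called higher and 2.7% called lower. It passed the filter only through KO D7, where it was high. In KO between days, and in the change of the KO effect with day, it could only enter as lower. With no filter on low values it was called in both (limma FDR = 0.001065 and 0.002094). The change with day of the KO effect was called for 4 of 7 genes, *Cyp26a1* and *Crabp1* higher and *Stra6* and *Dhrs3* lower, beside 3.89% and 3.36% of all genes. Without KO D15 replicate 1 the value of *Dhrs3* was -0.97, just under the 2-fold threshold, and without KO D7 replicate 1 that of *Aldh1a2* was 1.03 and became a call.

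**Figure D4:**
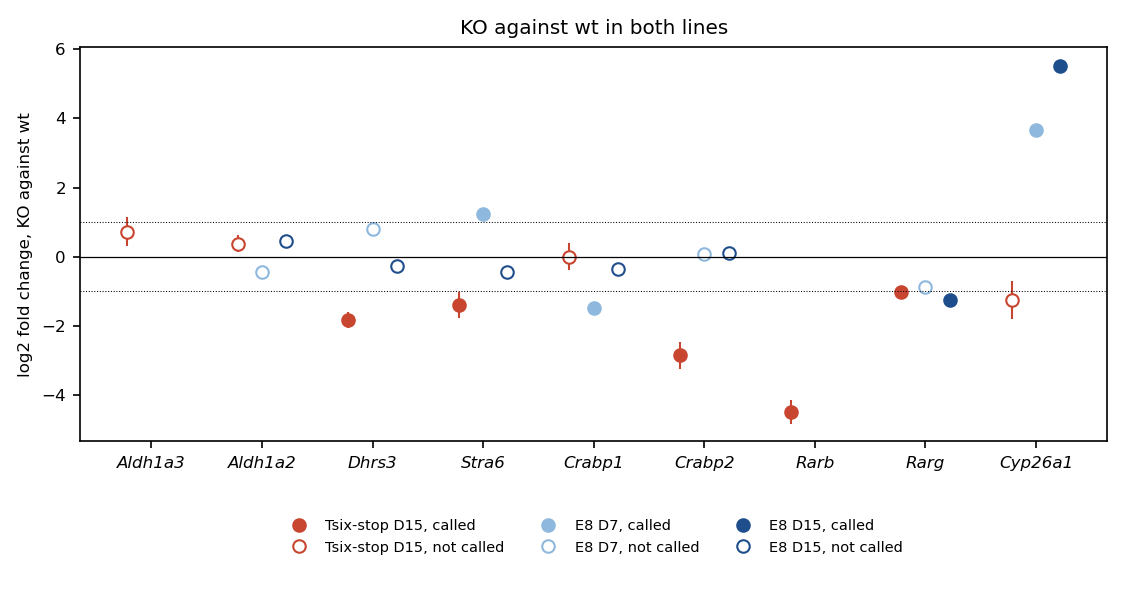
Fitted log2 fold change of KO against wt for the 9 genes in *Tsix*-stop at D15 (edgeR) and in E8 at D7 and D15 (limma, log2(TPM + 1) scale); bars are SE, filled points are called, dotted lines mark 2-fold. *Cyp26a1* is at -1.25 in *Tsix*-stop, not called, and at 3.66 and 5.50 in E8, and *Rarg* is under 0 in all 3 comparisons.

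At D15 the 2 lines thus differed in direction for *Rarb* and *Cyp26a1*. All *Tsix*-stop KO libraries were under wt, with KO to wt ratios of 0.0468 and 0.441, and all E8 KO libraries were above wt, with ratios of 4.24 and 66.7. *Cyp26a1* was not called in *Tsix*-stop cells, and *Rarb* was under the filter in E8 cells. The fitted values of *Rarg*, *Dhrs3*, *Stra6* and *Aldh1a2* had the same sign in both lines at D15. The difference between lines was not tested, because one line has counts and the other only TPM. The visceral endoderm sum also ran in opposite directions in the 2 lines, and its part was not tested. Cell line, kind of deletion and clone, and possibly the day, differ together between the KO groups and cannot be told apart.

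Other genes of the retinoid pathway were read from a list of 48, of which 30 were tested in *Tsix*-stop cells and 31 in E8 cells. In *Tsix*-stop KO against wt at D15, 7 were called lower and 1 higher, beside 11.1% and 3.83% of all genes. Carriers and storage genes came first. *Rbp4*, the plasma carrier of retinol, was at 277 and 294 TPM in wt and 18.2 and 9.46 in KO (log2 fold change -4.35, SE 0.41, edgeR FDR = 0.000329). *Ttr*, its partner in plasma, was at 123 and 148 against 3.58 and 3.37. The CRISPR control stood with KO for both, at 14.5 TPM of *Rbp4* and 2.54 of *Ttr*. *Ttr* is also on the visceral endoderm list and passed the filter only through wt D15. *Lrat*, which stores retinol as esters, was the gene called higher, at 0.340 and 0.235 TPM in wt and 2.20 and 2.43 in KO. The control lay between, at 1.09 TPM, and *Lrat* passed only through KO D15.

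The other calls were on the list of target genes, among them *Meis2* (log2 fold change -3.68), *Nr2f2* (-2.59), *Stra8* (-2.24) and *Meis1* (-1.94). These are developmental transcription factors except *Stra8*, a gene of meiotic entry that passed the filter only through wt libraries. In the CRISPR control *Stra8* (3.38 TPM) was under both KO libraries. *Meis1* (3.62) and *Meis2* (2.87) lay there between wt and KO, and *Nr2f2* (6.62) was above wt. None of the 7 tested enzymes of retinol and retinal oxidation or reduction and none of the 11 tested receptors and cofactors was called by edgeR, and *Rara* was at 58.2 and 61.2 TPM in wt and 43.7 and 36.6 in KO. The median log2 fold change of the 30 genes was -0.557, with 25 of them under 0. *Rdh10* was at 13.0 and 12.6 TPM in wt, 6.005 and 9.60 in KO, with 27.3 in the CRISPR control. At D0, for which nothing is read from the count, 3 were called higher and 3 lower, beside 3.11% and 5.01% of all genes.

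In E8 KO against wt, 9 of the 31 were called higher and 1 lower at D7, and 5 higher and 1 lower at D15, beside 11.4% and 6.18% of all genes at D7 and 7.67% and 3.08% at D15. *Rbp4* was at 8.42 and 9.09 TPM in wt and 278 and 275 in KO at D7 (log2 fold change 4.83, SE 0.04, limma FDR = 4.46e-10) and still 3.13 higher at D15, and *Ttr* was at 0.729 and 0.561 in wt and 195 and 197 in KO at D7. *Rdh10*, the enzyme of the first step of synthesis, was at 3.66 and 3.65 TPM in wt and 30.1 and 29.8 in KO at D7 (log2 fold change 2.73, SE 0.07, limma FDR = 4.58e-08), and at 3.20 and 2.60 in wt and 12.6 and 12.2 in KO at D15 (1.78). *Nr2f2* (2.17), *Meis2* (1.72), *Meis1* (1.67) and *Nrip1*, a receptor cofactor (1.40), were also called higher at D7, and *Meis1* (1.65) was called higher at D15 too. *Nr2f2* passed the filter only through KO D7, and *Meis1*, *Meis2* and *Ttr* only through KO libraries, so these could only enter as higher. *Stra8* was the gene called lower, at both D7 (-2.31) and D15 (-1.40), as in *Tsix*-stop cells at D15. *Rbp4*, *Ttr* and *Meis1* were therefore called in opposite directions at D15 in the 2 lines, together with the visceral endoderm markers.

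Allelic reads gave a second readout of the genes in *Tsix*-stop cells. The strain-129 part of the SNP reads was taken for each gene and library with 20 or more such reads, with 95% Wilson intervals that cover counting error only. For *Aldh1a3* at D0 it was 36.0% (27.3 to 45.8, 100 reads) and 28.2% (19.4 to 39.0, 78 reads) in wt, against 31.1% (28.5 to 33.9, 1138 reads) and 28.2% (25.4 to 31.2, 916 reads) for KO and 27.1% (25.3 to 29.1, 2037 reads) for the CRISPR control. The *cast* allele thus gave the larger part in all 5 D0 libraries, and the intervals of wt and KO overlapped although KO had about 10 times more reads. Genes of the same chromosome had a median of 50.7% to 51.5% in these libraries. At D15 the share of *Aldh1a3* was 46.2% to 66.7%, over 33 to 166 reads.

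*Aldh1a2* and *Rarg* leaned the other way at D0. The strain-129 share of *Aldh1a2* was 65.2% to 87.8% over the 5 D0 libraries and 42.3% to 62.5% at D15, and that of *Rarg* was 63.8% to 72.6% at D0 and 52.4% to 64.5% at D15. *Crabp1* at D15 was at 52.0% (41.0 to 62.7) and 60.7% (50.02 to 70.5) in wt, against 76.9% (68.5 to 83.6) and 77.6% (67.1 to 85.5) for KO and 83.9% (75.1 to 89.97) for the control, while its total levels in these groups overlapped. *Crabp2* at D15 was at 46.1% and 39.4% in wt, and the 2 KO libraries differed, with 2.86% (0.506 to 14.5, 35 reads) in replicate 1 and 28.2% (19.0 to 39.5, 71 reads) in replicate 2. *Rarb* and *Cyp26a1* were near balance in wt at D15, at 53.7% and 54.5% and at 53.5% and 54.3%. With 2 libraries a group no exact test could reach p = 0.05, so none was made.

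**Figure D5:**
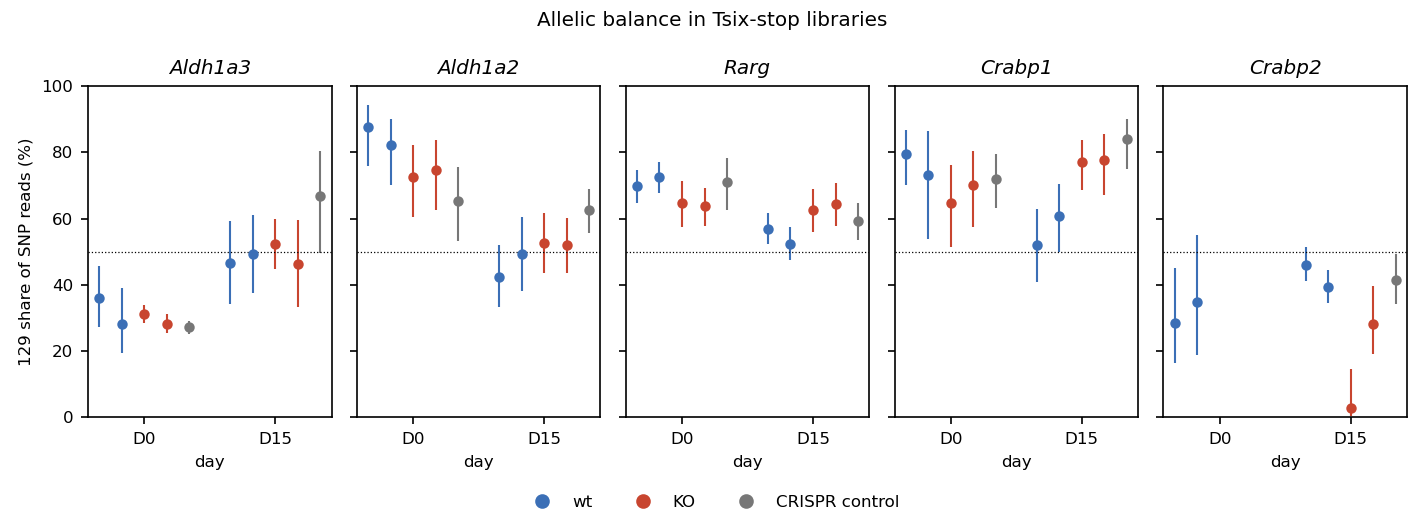
Strain-129 part of the SNP reads (%) for 5 genes in *Tsix*-stop libraries with 20 or more SNP reads, at D0 and D15; bars are 95% Wilson intervals, colours are genotypes, and the dotted line marks 50. *Aldh1a3* is at 27.1% to 36.0% and *Crabp1* at 64.8% to 79.55% in all D0 libraries. At D15 *Crabp1* is at 76.9% to 83.9% in KO and control and 52.0% to 60.7% in wt.

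The genes whose levels ran most like those of *Aldh1a3* were taken by Pearson's r of log2(CPM + 1) over the 10 *Tsix*-stop libraries. They were *Map6d1* (r = 0.970), *Strip2* (0.967), *Sorl1* (0.965), *Sstr2* (0.961) and *Bbs1* (0.960), which share libraries and scaling with it, so r is a description. *Sorl1*, a sorting receptor, was at 105 and 152 CPM in wt, with 317 and 275 for KO and 327 for the CRISPR control at D0, and at 108 to 181 CPM at D15. *Sstr2*, a somatostatin receptor, was at 1.44 and 0.899 in wt, with 4.09 and 3.61 for KO and 6.04 for the control at D0. As for *Aldh1a3*, the control stood with KO at D0. Over the 8 E8 libraries, in which *Aldh1a3* did not exceed 1.83 TPM, the 5 most similar genes were *Zfpl1*, *Nfatc2*, *Zfp868*, *Usp30* and *Immt*, with r from 0.971 to 0.980, and none was among those of *Tsix*-stop cells.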

How the data were processed

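The authors' *Tsix*-stop files hold estimated counts per gene, deposited for the strain-129 and the *cast* genome, and SNP reads of each allele. The count on the strain-129 genome served as diploid count and was rounded (7.10% of values were not whole). For E8 the authors deposited TPM, and 537 repeated symbols were summed. The submitters' processing notes name mm10, Bowtie2 2.4.5 and TopHat2 2.1.1. The gene annotation and the use of strand in counting are not given in the sources used here.

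Samples were grouped by line, genotype and day in the labels. The members and gene lists were chosen with earlier results of these data known. edgeR 4.0.16 in R 4.3.3 (TMM, quasi-likelihood test) fitted the 8 wt and KO *Tsix*-stop libraries over 13121 genes that reached 2.5 CPM in 2 or more libraries, and limma 3.58.1 with a trend fitted log2(TPM + 1) of the 8 E8 libraries over 12452 genes under the same filter on TPM. Calls needed a Benjamini-Hochberg FDR of at most 0.1 over all genes and at least 2-fold. Both fits were tested on simulated data. *Tsix*-stop TPM used GENCODE vM21 exon lengths (GRCm38). Named were the 9 genes, other listed pathway genes called in a comparison or partner of a member, and the 5 genes most correlated with *Aldh1a3* in each line; some listed genes are counted but not reported by name here. Alternatives were DESeq2 1.42.0, other scalings, filters, pseudocounts, the *cast* columns, a replicate block and leaving out libraries. Figures used matplotlib.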

Additional observations from a re-analysis of the deposited data

Results flagged for a closer look

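In E8 cells the effect of KO differed between D15 and D7, by the interaction term of the limma fit, for *Cyp26a1* (1.84 on the log2(TPM + 1) scale), *Crabp1* (1.11), *Dhrs3* (-1.07) and *Stra6* (-1.68). *Stra6* passed the filter only through KO D7, so it could only enter as lower.

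At D15 each KO library lay on the opposite side of wt in the 2 lines for *Rarb*, with ratios of KO to wt of 0.0468 in *Tsix*-stop and 4.24 in E8, and for *Cyp26a1*, with 0.441 and 66.7. The difference between the lines was not tested. *Cyp26a1* was not called in *Tsix*-stop cells, and *Rarb* was under the filter in E8 cells.

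The CRISPR control libraries, which entered no main test, were at least 2-fold above the higher wt library of the same day for *Aldh1a3* at D0 (107 CPM), *Aldh1a2* at D15 (10.7 CPM) and *Cyp26a1* at D0 (0.347 CPM, 22 counts). Each is 1 library with no replicate check.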

How the results depend on the processing

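Over the alternatives, 1034 recomputed fold changes of the members kept their direction and their side of the thresholds, or for untested values stayed within the spread of replicates, 12 became calls, 8 ceased to be calls, 4 untested values moved by more than that spread and 21 changed sign. With the CRISPR control counted as wt, the D0 log2 fold change of *Aldh1a3* was 0.53 in place of 3.49, 3 members were called at D15 in place of 5, and *Aldh1a2* (-0.0496) and *Crabp1* (-0.0167) turned sign at D15. The genes called among all were then 20 in place of 1066 at D0 and 1115 in place of 1958 at D15. With no filter on low counts, 15 other pathway genes were called at *Tsix*-stop D15 in place of 8, and 1738, 3099, 7713 and 5665 of all genes were called in the *Tsix*-stop D0, D15, wt day and KO day comparisons in place of 1066, 1958, 4965 and 3625. With 2.5 CPM asked of 4 libraries, 2 members and 4 other pathway genes were called at D15, and 1 member in each day comparison, in place of 4, since fewer genes entered. In E8, a pseudocount of 0.1 gave 2 members called in KO between days in place of 1, and 332 of all genes in wt between days in place of 175, and 2.5 TPM in 4 libraries gave 0 members in KO between days, where *Stra6* was no longer tested. *Crabp2*, which stayed near 0 in E8, was at -0.00498, -0.0014 and -0.00723 at D7, D15 and in KO between days under median-of-ratios scaling.

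Leaving out 1 library gave 2 to 7 members called at *Tsix*-stop D15, 2 to 5 in wt and 2 to 5 in KO between days, and 0 to 1 in E8 KO between days. The low counts came without either wt D15 or E8 KO D7 library, when *Rarb* and *Stra6*, or *Stra6* in E8, no longer passed the filter. The *Tsix*-stop D15 value ranged from -0.19 to 1.31 for *Aldh1a3* and from -0.21 to 0.25 for *Crabp1*, and the KO day value from -0.0706 to 0.22 for *Dhrs3* and from -0.36 to 0.10 for *Rarg*. For *Crabp2* in E8 the ranges were -0.0246 to 0.16 at D7, -0.0425 to 0.24 at D15, -0.14 to 0.14 in wt and -0.0663 to 0.12 in KO between days, and -0.11 to 0.17 for the difference between days. The causes of the other changes were not tested.

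Replicate numbers are shared between groups. Over the tested genes, the differences between replicates 1 and 2 correlated weakly between groups, from -0.209 to 0.226. The highest value was that of *Tsix*-stop KO D0 with KO D15, and *Kdm6a* was higher in KO replicate 1 on both days. The labels do not say whether a replicate number marks a clone. With a replicate block, 6 members were called at *Tsix*-stop D15 in place of 5, *Cyp26a1* being added, *Crabp1* was at -0.0192, and the other counts of members were as without it. With the wt D15 numbers crossed in the block, a choice made after seeing the data, 6 members and 2004 genes were called at *Tsix*-stop D15 and 2 members and 1341 genes at E8 D15. Depth limits *Cyp26a1*, *Stra6* and *Rarb* at D0, with 6 to 151 counts a library, and is unknown for E8.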
